A study of Homo sapiens with 2 samples.

Results

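The molecular chaperones described here are 82 protein-coding genes out of 34269 genes with a named transcript in the tables. They were taken by symbol: every gene beginning DNAJ, HSPA, HSPB, HSPD, HSPE, HSPH or HSP90, together with TCP1 and the CCT genes, the subunits of the cytosolic chaperonin. HSPA5 and DNAJB9 were left out. The gene once called HSPB11 now carries the symbol IFT25 and was not taken, and 2 further genes that the rule takes had no named transcript and were not analysed here. A mean TPM (transcript abundance per length, scaled to a fixed total in each library) of at least 1 over both libraries was reached by 65 of the 82, and these were compared. The compared members fall into 7 HSP70 genes, 3 HSP110 genes, 3 HSP90 genes, 3 small heat shock genes, 2 mitochondrial chaperonin genes, 9 CCT genes, 3 DNAJA, 7 DNAJB and 23 DNAJC genes. The other 5 entered by their symbol alone: HSPBP1 and HSPBAP1, which bind chaperones without being of these families, and 3 readthrough genes that join a chaperone gene to its neighbour.

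Polyadenylated RNA came from cells of the liver cancer line HepG2, in which a cassette makes expression of SAMD4B depend on doxycycline (Dox). SAMD4B belongs to the family of the fly protein Smaug, which binds RNA hairpins through its SAM domain. The series has 2 libraries, 1 from cells grown without Dox and 1 from cells given 1 µg/ml Dox for 48 h, and both carry the cassette. The labels do not say whether the cells were a clone or a pool, and cells given Dox without the cassette were not analysed here, so an effect of Dox and an effect of SAMD4B cannot be told apart. With 1 library per group there is no replicate spread and no test, and each difference below is a difference between these libraries.

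Chaperones bind unfolded or partly folded proteins and keep them from aggregating. HSP70 proteins hold short hydrophobic stretches in a cycle driven by ATP, J-domain proteins of the DNAJ families deliver clients and start ATP hydrolysis, and HSP110 proteins exchange the nucleotide. HSP90 acts later on clients such as kinases and steroid receptors, the chaperonins fold proteins inside a closed chamber, and small heat shock proteins bind clients without ATP. Hepatocytes secrete large amounts of protein, so the chaperones of the endoplasmic reticulum (ER) are prominent there. Many cytosolic members are also targets of heat shock factor, which binds repeats of nGAAn called heat shock elements.

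SAMD4B itself was at 47.5 TPM without and 261 TPM with Dox, in the direction of the labels. Estimated from the steps of the low TPM values, 18132211 and 23568332 fragments lay on named transcripts of the primary assembly of 600 nt or longer. These sums are the depths used below, and fragments on other transcripts are not in them. All 7 hepatocyte markers were expressed, 6 of them lower with Dox, with a median log2 difference of -0.14, and ALB was at 445 and 407 TPM. Of 7 markers of blood, endothelium and fibroblasts, PTPRC and VWF were listed at 0 in both libraries, COL1A1 was at 0.204 and 0.142 TPM, and COL3A1 and DCN were lower still. CD68 was at 10.7 and 11.3 TPM and PECAM1 at 4.57 and 4.55 TPM. What part these differences have in those of the chaperones was not tested.

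The promoters are shown first, because a perfect form of the element through which heat shock factor acts can be searched in them. RefSeq promoter windows (GRCh38.p14, 250 bases before to 50 after the gene's start, 5′ to 3′ on the gene's strand) were matched for 73 of the 82 members. The element searched was a run of 3 units in perfect form, that is GAA, NN, TTC, NN and GAA in a row (N is any base), on both strands. It was present in 4 of the 73 windows (5.48%) and in 133 of all 27305 windows (0.487%). Among members compared, 3 of 58 windows held it (5.17%), against 24 of 9113 (0.263%) for protein-coding genes compared. The windows of the 3 compared members are printed with the element in capitals. They lie at chr11:123062087-123062386 on the minus strand for HSPA8, chr9:33025023-33025322 on the plus strand for DNAJA1, and chr7:157336754-157337053 on the plus strand for DNAJB6.
HSPA8: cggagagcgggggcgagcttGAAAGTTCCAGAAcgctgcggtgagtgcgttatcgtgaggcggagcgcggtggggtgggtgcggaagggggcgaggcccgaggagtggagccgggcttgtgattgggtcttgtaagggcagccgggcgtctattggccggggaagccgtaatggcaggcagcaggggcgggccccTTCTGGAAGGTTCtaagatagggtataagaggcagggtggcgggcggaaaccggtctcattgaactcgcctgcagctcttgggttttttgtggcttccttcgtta
DNAJA1: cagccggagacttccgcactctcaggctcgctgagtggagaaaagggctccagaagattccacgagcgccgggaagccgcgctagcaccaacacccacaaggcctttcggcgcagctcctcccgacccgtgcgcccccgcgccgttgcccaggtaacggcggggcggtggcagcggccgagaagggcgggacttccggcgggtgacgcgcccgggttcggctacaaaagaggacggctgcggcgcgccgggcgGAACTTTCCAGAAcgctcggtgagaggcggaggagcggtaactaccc
DNAJB6: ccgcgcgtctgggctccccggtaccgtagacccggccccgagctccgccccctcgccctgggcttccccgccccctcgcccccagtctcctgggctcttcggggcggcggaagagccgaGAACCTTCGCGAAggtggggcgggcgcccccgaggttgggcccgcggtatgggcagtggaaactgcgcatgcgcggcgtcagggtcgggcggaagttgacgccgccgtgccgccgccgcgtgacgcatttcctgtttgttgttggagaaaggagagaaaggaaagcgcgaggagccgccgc

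In HSPA8 the first bases of the 2 elements lie 230 and 55 bases before the start, on opposite strands. The DNAJB6 element begins 131 bases before the start and that of DNAJA1 begins 3 bases after it. The other window with an element belongs to HSPA6, the HSP70 gene known for being silent without stress. HSPA6 was at 0.0655 TPM without and 0.026 TPM with Dox, worth 2 and 1 estimated fragments. The 3 expressed genes did not move together: HSPA8 and DNAJA1 were lower with Dox (log2 differences of -0.28 and -0.20), and DNAJB6 was higher (0.35). A match is a description of these letters, and heat shock factor binding was not measured. The list of heat-induced genes described below holds HSPA8, DNAJA1 and HSPA6. It also holds HSPA1A, HSPA1B, DNAJB1, HSPH1, HSPB1 and HSP90AA1, whose windows had no perfect match. Imperfect elements were not searched, so a window without a match can still hold one.

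HSPD1 and HSPE1, which encode the chamber and the lid of the mitochondrial chaperonin, stand head to head on chromosome 2. Their start sites, at 197500274 for HSPD1 and 197500379 for HSPE1, are 105 bases apart, and their windows share 204 bases. They are printed because both genes share this stretch, whose activity was not measured. The HSPE1 window is chr2:197500129-197500428 on the plus strand and the HSPD1 window is chr2:197500225-197500524 on the minus strand. Neither holds the perfect element.
HSPE1: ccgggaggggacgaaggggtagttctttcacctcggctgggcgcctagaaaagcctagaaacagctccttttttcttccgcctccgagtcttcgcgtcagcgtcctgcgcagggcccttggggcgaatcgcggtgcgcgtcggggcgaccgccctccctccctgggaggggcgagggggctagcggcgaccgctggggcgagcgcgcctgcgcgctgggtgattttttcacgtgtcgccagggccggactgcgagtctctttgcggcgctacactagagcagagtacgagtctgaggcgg
HSPD1: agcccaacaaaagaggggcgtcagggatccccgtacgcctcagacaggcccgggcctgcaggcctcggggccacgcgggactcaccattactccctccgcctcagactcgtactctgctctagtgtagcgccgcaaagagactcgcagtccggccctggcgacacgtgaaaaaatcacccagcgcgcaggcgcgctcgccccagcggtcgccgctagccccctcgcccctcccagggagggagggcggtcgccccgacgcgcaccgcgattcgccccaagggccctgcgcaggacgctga

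The whole group was nearly level between the libraries. In RNA of whole cultures, fewer cells with a transcript and less of it per cell cannot be told apart. Members compared summed to 14298 TPM without and 13774 TPM with Dox, or 1.43% and 1.38% of each library. Differences are given as log2((TPM + 1) with Dox/(TPM + 1) without Dox), a scale that understates the change of low genes. On it, 38 of the 65 were higher with Dox and 27 lower, from -0.58 to 1.51, with a median of 0.04 against 0.02 for the 11225 protein-coding genes compared. A difference of at least 1.5-fold was seen in 3 of 65 members, all higher with Dox, where 8.24% of protein-coding genes and 8.98% of all genes compared passed that mark in either direction. For protein-coding genes the share was 4.86% higher and 3.38% lower. The 3 members were HSPB8, DNAJC27 and DNAJC28, each at a mean TPM below that of most members.

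A difference of less than 1.25-fold was found for 53 of 65 members (81.5%) and for 72.9% of protein-coding genes compared. At a mean TPM of at least 10, 0 of 53 members passed 1.5-fold, where 4.93% of 7528 protein-coding genes did. There 48 of the 53 (90.6%) were within 1.25-fold, against 79.0% of the protein-coding genes. The median absolute log2 difference at that level was 0.132 for members and 0.161 for protein-coding genes. These shares describe the libraries, and the difference between them was not tested. Members and background were not matched by abundance above the mark of 10 TPM. The background share itself was higher at that mark (79.0%) than at 1 TPM (72.9%). Short transcripts give no fragment estimate. For the 54 members with 80% or more of the TPM on transcripts of 600 nt or longer, the ratio of estimated fragments per depth could be given with an exact 95% binomial interval (Clopper-Pearson). The interval excluded 1 for 31 of them (57.4%), 14 above and 17 below. Of 9370 protein-coding genes with such a ratio, 53.9% had an interval that excluded 1, 24.7% above and 29.1% below, so the share in chaperones was near the background. At a mean TPM of at least 10 the shares were 62.2% of 45 members and 60.2% of 6379 protein-coding genes. The intervals take the estimated depth as known, and they cover counting error only, not differences between cultures.

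**Figure D1:**
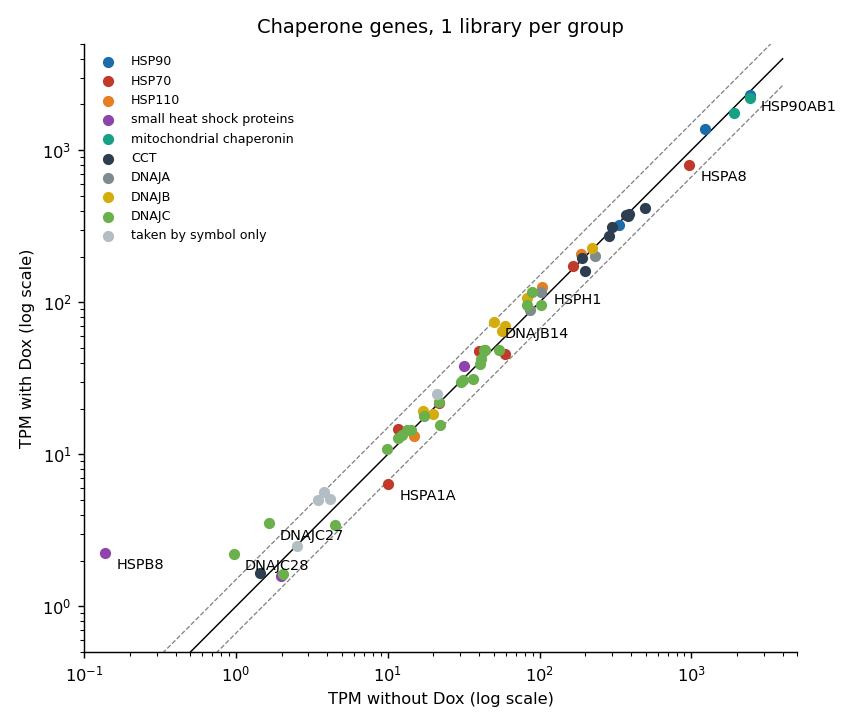
TPM with Dox against TPM without Dox, both on log scales, for the 65 chaperone genes compared, coloured by family. The solid line marks equal values and the dashed lines a 1.5-fold ratio of TPM. Points with a mean TPM of at least 10 follow the solid line, and HSPB8, at 0.138 and 2.24 TPM, lies farthest from it.

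**Figure D2:**
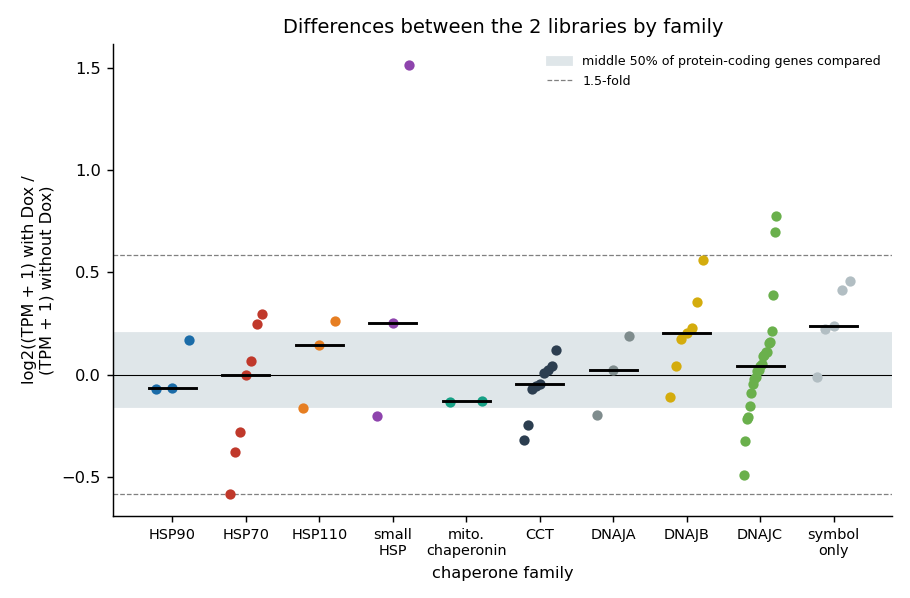
Log2 difference between the libraries on the TPM + 1 scale for each chaperone gene compared, by family. Points are genes, black bars are family medians, the grey band holds the middle 50% of protein-coding genes (-0.16 to 0.20), and dashed lines mark 1.5-fold. The 3 points above the upper line are HSPB8, DNAJC27 and DNAJC28, and the DNAJB median (0.20) lies at the upper edge of the band.

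Among HSP90 genes, both cytosolic forms were slightly lower with Dox and the ER form was higher. HSP90AB1, the constitutive cytosolic form (chromosome 6, 44246166 to 44253888, GRCh38) and the most abundant member, was at 2433 TPM without and 2318 TPM with Dox, a fragment ratio of 0.926 (interval 0.918 to 0.935). HSP90AA1, the form that heat induces most, was at 336 and 321 TPM (0.927, 0.907 to 0.947). HSP90AB1 was thus 7.24 times as abundant as HSP90AA1 without Dox and 7.23 times with Dox. HSP90B1, known as GRP94, which folds integrins and Toll-like receptors in the ER, was at 1231 and 1386 TPM (1.11, 1.09 to 1.12). A retained-intron transcript of HSP90B1, ENST00000551983, was at 15.0 TPM without Dox and listed at 0 with Dox, and its protein-coding transcripts summed to 1215 and 1385 TPM.

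HSP70 genes differed in sign, with 3 of the 7 compared higher and 4 lower. HSPA8 (chromosome 11, 123057489 to 123063230), the constitutive HSC70 that also uncoats clathrin, was at 973 TPM without and 801 TPM with Dox. Its log2 difference was -0.28 and its fragment ratio 0.798 (0.786 to 0.811), and 98.2% and 97.7% of its TPM lay on ENST00000534624. The stress-inducible twins were lower as well. HSPA1B was at 59.6 and 45.7 TPM (-0.38) and HSPA1A at 10.1 and 6.41 TPM (-0.58). These intronless genes are nearly identical copies on chromosome 6, so fragments can be shared between them, and their sum of 69.7 and 52.1 TPM (-0.41) is the safer value. Both were listed at 0 on the primary assembly, and all of their TPM lay on transcripts from other sequences of the genome build, which have no length here, so no fragment ratio could be given.

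The other HSP70 genes were level or higher. HSPA9, the mitochondrial mortalin, was at 165 and 173 TPM (fragment ratio 1.03, 0.977 to 1.09). Most of that sum, 115 and 116 TPM, sat on a transcript of 663 nt annotated for nonsense-mediated decay, ENST00000507115, while its full coding transcript was at 45.4 and 47.1 TPM. HSPA13, an HSP70 of the ER lumen, was at 40.1 and 47.9 TPM (1.16, 1.10 to 1.23), and HSPA12A, a distant relative, at 11.7 and 14.6 TPM (1.18, 1.08 to 1.29). HSPA14, which works with the J protein DNAJC2 at the ribosome, was at 21.9 and 21.8 TPM, and DNAJC2 at 43.1 and 48.2 TPM. Below the mark of 1 TPM, HSPA1L was at 0.137 and 0.143 TPM, HSPA2 was listed at 0 and at 0.0333 TPM, and HSPA12B was listed at 0 in both libraries.

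The HSP110 exchange factors split. HSPH1 was at 104 TPM without and 126 TPM with Dox, a fragment ratio of 1.21 (1.17 to 1.25), and HSPA4 at 187 and 207 TPM (1.09, 1.06 to 1.12). HSPA4L, another paralogue, was at 15.0 and 13.3 TPM (0.833, 0.768 to 0.902). Within HSPH1 the protein-coding transcripts carried the difference, with 78.8 and 103 TPM, while its decay-annotated transcript ENST00000602786 was at 22.2 and 20.3 TPM. As HSPA8 was lower and HSPH1 higher, the ratio of HSPA8 to HSPH1 was 9.32 without Dox and 6.38 with Dox. HSP70 exchange and co-factors showed no common direction. Of 14 compared, 7 were higher and 7 lower, with a median of -0.03. The 3 largest differences there were HSCB, a mitochondrial J protein of iron-sulfur cluster assembly (55.2 and 40.7 TPM), GRPEL2, a mitochondrial exchange factor (15.4 and 20.6 TPM), and BAG4 (32.6 and 26.6 TPM).

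Small heat shock proteins were scarce, and the most uneven member of all was among them. HSPB8 (ENSG00000152137, chromosome 12, 119178642 to 119221131, plus strand) was at 0.138 TPM without and 2.24 TPM with Dox, all on the coding transcript ENST00000281938. In estimated fragments this was 4 against 77, a ratio of 15.8 with a counting interval of 5.56 to 55.7. It was at the mark of 1 TPM only through the library with Dox, its mean of 1.19 being the lowest of the members compared, so that it had to differ to be compared. HSPB8 binds BAG3, with which it directs damaged proteins to autophagy, and BAG3 was level at 31.2 and 32.4 TPM. Its promoter window, chr12:119178681-119178980 on the plus strand, is shown as that of the member with the largest difference. It holds no perfect heat shock element.
HSPB8: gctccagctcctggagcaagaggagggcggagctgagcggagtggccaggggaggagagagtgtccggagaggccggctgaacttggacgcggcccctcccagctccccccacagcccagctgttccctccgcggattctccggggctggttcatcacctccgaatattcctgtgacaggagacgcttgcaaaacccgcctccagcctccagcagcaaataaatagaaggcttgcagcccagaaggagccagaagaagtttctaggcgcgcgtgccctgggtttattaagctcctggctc

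HSPB1, or HSP27, the small heat shock protein found in most cells, was at 31.9 TPM without and 38.1 TPM with Dox, with an interval that spans 1 (0.954 to 1.30). HSPB2, known from muscle, was at 1.98 and 1.59 TPM, worth 30 and 31 fragments. HSPB6 was at 0.174 and 0.0922 TPM and HSPB9 at 0.267 TPM and listed at 0, while HSPB3 and HSPB7 were listed at 0 in both. Among the small heat shock members taken here, RNA in both libraries was mainly HSPB1. The related gene CRYAB, which the symbols do not take, was at 7.89 and 7.83 TPM.

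Both mitochondrial chaperonin genes were slightly lower with Dox, by nearly the same amount. HSPE1, the lid, was at 2435 TPM without and 2222 TPM with Dox (fragment ratio 0.888, 0.872 to 0.904). HSPD1, the chamber (chromosome 2, 197486581 to 197516737), was at 1923 and 1758 TPM (0.889, 0.879 to 0.899). HSPD1 had 0.790 times the TPM of HSPE1 without Dox and 0.791 times with Dox. HSP90AB1 and HSP90AA1, on chromosomes 6 and 14, kept their ratio as well (7.24 and 7.23), while HSPA8 and HSPH1 did not (9.32 and 6.38). What part the shared stretch printed above has in the ratio of HSPD1 to HSPE1 was not tested. HSPE1-MOB4, a readthrough gene that starts with HSPE1, was at 3.49 and 4.97 TPM from 30 and 55 fragments. Of 10 mitochondrial proteostasis partners outside the group, 5 were higher and 5 lower, with a median of 0.02. The largest differences in TPM were those of the protease subunit CLPX, at 67.8 and 49.5 TPM, the protease HTRA2 (log2 difference of -0.43), and the mitochondrial HSP90 TRAP1, at 144 and 110 TPM. HTRA2 and TRAP1 were also lower in fragments (ratios of 0.631 and 0.727). CLPX went the other way, with 1793 estimated fragments without Dox and 2655 with Dox at depths 1.30-fold apart, so its direction is uncertain.

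The cytosolic chaperonin is a double ring in which each of 8 different subunits occupies a fixed place, and its best known clients are actin and tubulin. The 8 ring subunits summed to 2627 TPM without and 2481 TPM with Dox, and 3 were higher and 5 lower with a median of -0.05. TCP1 was at 384 and 369 TPM, CCT2 at 191 and 194, CCT3 at 373 and 376, and CCT4 at 302 and 311. CCT5 was at 391 and 378 TPM, CCT6A at 200 and 160, CCT7 at 498 and 419, and CCT8 at 287 and 274. All 8 differed by less than 1.25-fold, and the highest subunit had 2.60 times the TPM of the lowest without Dox and 2.61 times with Dox.

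CCT6A and CCT7 had the lowest log2 differences (-0.32 and -0.25). CCT6A was lower in its protein-coding transcripts, at 186 and 152 TPM, and in fragments, with a ratio of 0.792 (0.766 to 0.819), and its retained-intron transcripts were at 14.1 and 8.34 TPM. In CCT7 (chromosome 2, 73233420 to 73253021) much of the difference sat on ENST00000480489, a retained-intron transcript of 527 nt, at 90.7 TPM without and 41.4 TPM with Dox. The protein-coding transcripts of CCT7 summed to 389 and 366 TPM, a log2 difference of -0.08 against -0.25 for the whole gene. The signs of the smallest differences depended on the measure. CCT2, CCT3 and CCT4 were slightly lower and TCP1 level when estimated fragments replaced TPM, CCT3 was also slightly lower when centred on all genes, and CCT5 was level when protein-coding transcripts alone were summed. CCT6B, a testis paralogue of CCT6A, was at 1.44 and 1.65 TPM, and CCT8L2 was listed at 0 in both.

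**Figure D3:**
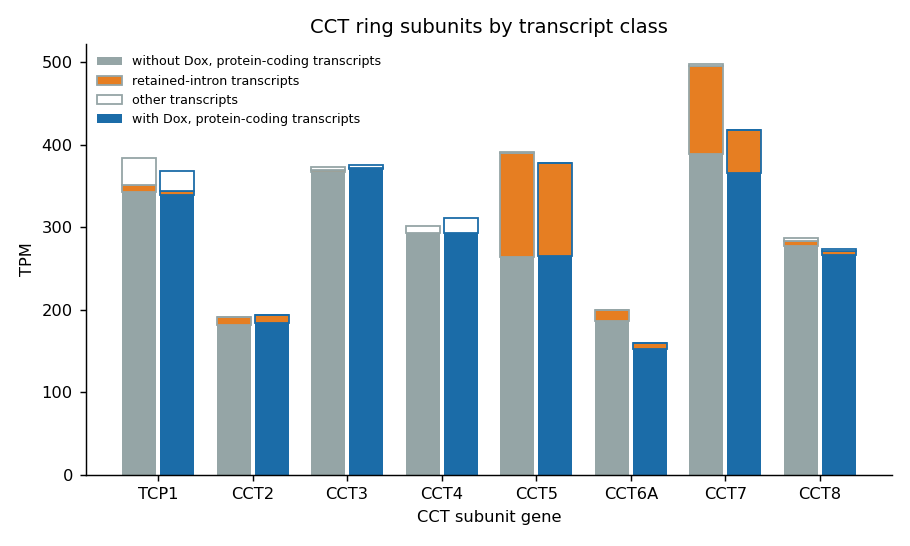
TPM of the 8 CCT ring subunits, with bars stacked by transcript class, the left bar of each pair without Dox and the right bar with Dox. Filled lower parts are protein-coding transcripts, orange parts retained-intron transcripts and white parts all others. The orange part of CCT7 was 108 TPM without and 51.6 TPM with Dox, and that of CCT5 126 and 113 TPM.

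Retained-intron transcripts of all members compared summed to 439 TPM without and 345 TPM with Dox. That was 3.07% and 2.51% of the members' TPM, while over all protein-coding genes compared the class held 4.59% and 4.53%. CCT7 made up most of the members' difference, since without it the sums were 331 and 294 TPM. Of 33 members with such transcripts above 0, 17 were lower and 16 higher, so the lower sum was not shared across the group. Protein-coding transcripts held 93.4% and 93.7% of the members' TPM and decay-annotated transcripts 1.72% and 1.89%.

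Partners of the chaperonin had small differences in both directions. Of 17 partners compared, which are prefoldin subunits and relatives, phosducin-like proteins and tubulin cofactors, 9 were higher and 8 lower, with a median of 0.00. The largest differences were in tubulin cofactors, with TBCC at 19.9 and 15.7 TPM, TBCD at 34.9 and 28.1 TPM and TBCE at 20.1 and 24.7 TPM. Among the clients of the ring the differences were wider. Of 9 actin and tubulin genes, 4 were higher and 5 lower with a median of -0.09, and 2 were at least 1.5-fold higher with Dox: TUBA1A at 1.66 and 5.05 TPM, and TUBB2A at 26.0 and 40.1 TPM. ACTG1, cytoplasmic gamma actin, was at 1153 and 1600 TPM, and the more abundant tubulin TUBA1B was lower, at 522 and 445 TPM. The median of the clients was the value of TUBA1C (-0.09), and the next value above it was that of ACTB (0.26). Such a median is sensitive to single genes. Without TUBB, which had no fragment ratio, the other 8 genes had a median of 0.09.

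J-domain proteins were the largest division, with 34 genes compared (the readthrough gene DNAJC25-GNG10, at 4.19 and 5.05 TPM, included), 23 higher and 11 lower and a median of 0.07. The other 31 members had 15 higher and 16 lower, with a median of -0.0032. The DNAJB class had the most uneven count in TPM, with 6 of 7 higher (median 0.20). Of the 6 DNAJB genes with a fragment ratio, 5 were higher in TPM and 4 in fragments. Among protein-coding genes compared, 52.9% were higher. These counts depended on the measure. Of 18 DNAJC genes with a fragment ratio, 11 were higher in TPM and 7 in fragments. Of 9370 protein-coding genes with such a ratio, 5028 were higher in TPM and 4371 in fragments.

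Class A proteins, which have the full domain set of bacterial DnaJ, went both ways. DNAJA1, a cytosolic partner of HSPA8, was at 232 TPM without and 201 TPM with Dox (fragment ratio 0.846, 0.819 to 0.874). DNAJA2 was higher, at 102 and 116 TPM (1.10, 1.05 to 1.15). DNAJA3, the mitochondrial form, was level at 87.0 and 88.3 TPM, of which 20.1 and 20.5 TPM lay on the primary assembly. DNAJA4 was at 0.118 TPM without Dox and listed at 0 with Dox.

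In class B, DNAJB1, the classical HSP40, was at 59.0 TPM without and 69.3 TPM with Dox (fragment ratio 1.18, 1.10 to 1.25). Its close relative DNAJB4 was at 56.2 and 64.9 TPM (1.22, 1.14 to 1.31). DNAJB14 and DNAJB12 are J proteins anchored in the ER membrane that take part in degradation of ER proteins. DNAJB14 was at 50.1 and 74.4 TPM, its 0.56 on the log2 scale the largest value in the class, being just short of 1.5-fold. Of this, 28.3 and 44.5 TPM lay on a coding transcript of 339 nt, while the transcript of 6075 nt was at 17.1 and 21.3 TPM, so its size is uncertain. DNAJB12 was at 17.1 and 19.4 TPM (1.19, 1.08 to 1.31).

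DNAJB6, which keeps polyglutamine proteins from aggregating, was at 83.0 TPM without and 106 TPM with Dox, but 13.3 TPM of the latter sat on a processed transcript listed at 0 without Dox. In fragments its ratio was 1.14 (1.07 to 1.21). DNAJB11, the abundant J protein of the ER lumen, was level at 221 and 227 TPM. DNAJB2, known from neurons, was the only member of the class compared that was lower in TPM, at 19.9 and 18.4 TPM. In estimated fragments DNAJB2 was lower, with a ratio of 0.811 (0.719 to 0.916). Its near-level TPM sum hid a shift between transcripts. The coding transcript ENST00000392086 was at 15.7 TPM without and 7.96 TPM with Dox, while the retained-intron transcript ENST00000472019 was listed at 0 and then at 4.87 TPM. Summed over coding transcripts, DNAJB2 was at 18.6 and 11.4 TPM, a log2 difference of -0.66, which made it the only member at least 1.5-fold lower when coding transcripts alone were summed.

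Class C holds J proteins with specialised tasks, and of its 23 genes compared 14 were higher and 9 lower (median 0.04). For the 18 with a fragment ratio the median was 0.03 on the TPM scale and -0.04 in log2 fragment ratio. DNAJC12, a co-chaperone of the aromatic amino acid hydroxylases, was at 88.9 TPM without and 117 TPM with Dox. Its fragment ratio of 1.27 (1.18 to 1.37) was the highest of those that could be given in the class. Lower values were found for DNAJC9, a histone chaperone, at 36.6 and 31.4 TPM (0.843, 0.784 to 0.905). DNAJC30, a mitochondrial J protein, was at 4.52 and 3.41 TPM (0.734, 0.576 to 0.931). DNAJC17, linked to splicing, was at 22.3 and 15.5 TPM, the lowest log2 difference of the class (-0.49), but 18.3% of its TPM lay on transcripts long enough for a fragment estimate and no ratio is given.

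The J proteins of secretion did not move as a block. DNAJC10, an ER reductase of disulfide bonds, was at 83.1 TPM without and 96.5 TPM with Dox (fragment ratio 1.19, 1.15 to 1.22). DNAJC3, an ER J protein also known as an inhibitor of the kinase PERK, was lower, at 53.9 and 48.3 TPM (0.873, 0.837 to 0.910). A list of 7 ER members joined these to HSP90B1, HSPA13, DNAJB11, DNAJC1 and DNAJC25, without DNAJB12 and DNAJB14. In TPM 6 of the 7 were higher and DNAJC3 was lower, with a median of 0.05. In fragments 4 were higher, as DNAJB11 (ratio of 1.00) and DNAJC25 (0.989) were not. Of 10 mitochondrial members 6 were higher and 4 lower, with a median of 0.02. For the 8 with a fragment ratio the median was -0.01 on the TPM scale and -0.15 in log2 fragment ratio. DNAJC19, of the import motor, was level in TPM at 40.8 and 39.5 and lower in fragments (0.826, 0.740 to 0.921).

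DNAJC27, a small GTPase of the Rab type with a J domain, and DNAJC28, a little studied J protein, passed 1.5-fold at low levels. DNAJC27 was at 1.64 TPM without and 3.52 TPM with Dox, but 2 of its transcripts were listed at 0 without Dox, and its coding transcripts were at 1.24 and 1.52 TPM. DNAJC28 was at 0.973 and 2.20 TPM, and of the latter 1.44 TPM lay on ENST00000572540, which was listed at 0 without Dox. Like HSPB8, DNAJC28 reached 1 TPM in the library with Dox alone. Without the all-or-none transcripts, those listed at 0 in 1 library and holding at least 10% of the gene in the other, HSPB8 alone passed 1.5-fold. Such transcripts, 10 in all, were found in 8 members.

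The remaining class C genes compared differed by less than 1.25-fold. The largest difference among them was that of DNAJC14, at 2.04 and 1.63 TPM (-0.21). Its fragment interval spans 1 (0.546 to 1.41). DNAJC7, which has TPR repeats and binds HSP70 and HSP90, was at 103 and 96.5 TPM (0.899, 0.852 to 0.949), and DNAJC21, of ribosome biogenesis, at 41.1 and 42.4 TPM but lower in fragments (0.924, 0.864 to 0.988). DNAJC5, the cysteine string protein of vesicles, was at 30.3 and 29.9 TPM, and DNAJC13, of endosomes, at 12.4 and 13.3 TPM. Below the mark, the nearest member was DNAJC6, the neuronal auxilin, at 0.633 and 0.479 TPM (mean 0.556), followed by DNAJB5 (mean 0.176) and DNAJB13 (mean 0.140). Just inside it were HSPB8 (1.19), CCT6B (1.54) and DNAJC28 (1.59). In all, 17 members fell below, of which 10 were above 0 in at least 1 library, and 7 were listed at 0 in both: CCT8L2, DNAJB7, DNAJB8, DNAJC5G, HSPA12B, HSPB3 and HSPB7.

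**Figure D4:**
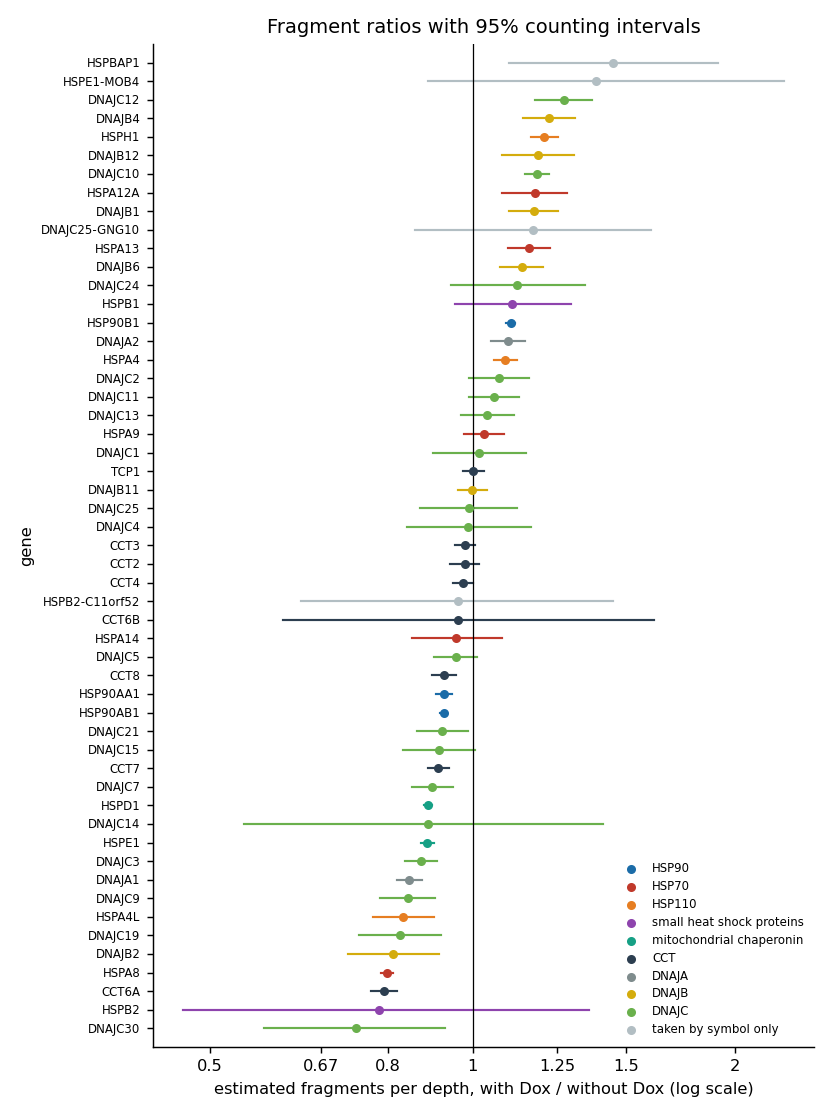
Ratio of estimated fragments per depth, with Dox over without Dox, on a log scale, for 53 of the 54 members with an interval; HSPB8 (15.8) lies outside the axis and is left out. Points are genes coloured by family and lines are 95% counting intervals. The abundant genes with the narrowest intervals lie on both sides of 1, such as HSPA8 (0.798) and HSP90B1 (1.11).

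Cofactors and regulators outside the group gave a similar picture. Of 17 HSP90 co-chaperones compared, 7 were higher and 10 lower, with a median of -0.03 and 0 past 1.5-fold. The largest differences were TOMM34, which hands preproteins to mitochondria (50.8 TPM without and 35.1 TPM with Dox, fragment ratio 0.672, 0.621 to 0.729), AHSA1, the activator of the HSP90 ATPase (186 and 141 TPM), and the myosin chaperone UNC45A (18.3 and 23.9 TPM). Of 3 heat shock factors and regulators compared 2 were higher, and another gene of that list was not analysed here. HSF2 was at 21.3 and 22.5 TPM and HSF4 at 5.42 and 5.43, and HSBP1, which binds heat shock factor trimers, was at 113 and 104 TPM.

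A list of genes known to be induced by heat had 20 members compared, and 12 of the genes listed are chaperones described above. Of the 20, 7 were higher and 13 lower, with a median of -0.13, against 0.02 for protein-coding genes compared, and 0 passed 1.5-fold. HSPA1A and HSPA1B, AHSA1, HSPA8 and SERPINH1, the collagen chaperone of the ER (177 and 156 TPM), were on the lower side. HSPH1, HSPB1, DNAJB1 and FKBP4 (41.7 and 48.9 TPM) were on the higher side. The list was written with earlier results of these data known. Its median stayed between -0.15 and -0.10 under every alternative tried, but each reuses the same 2 libraries and is no independent check. In estimated fragments only 16 of the 20 could be compared.

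Because Smaug proteins bind a short hairpin, stem-loops with a loop of CNGGN closed by 5 paired bases, G-U pairs allowed, were searched. The search took 1 transcript per gene, the coding transcript of the primary assembly with the highest mean TPM. For some members it was short, as in DNAJB14 (339 nt) and DNAJC17 (428 nt), and their longer coding transcripts were not searched. Such a match is a description of letters, and binding of SAMD4B was not measured. In 61 chaperone transcripts there were 30 matches, 0.184 per kb, and 20 transcripts (32.8%) had at least 1. Over 11066 protein-coding genes compared the values were 0.171 per kb and 38.1%. Of the 30 matches 12 lay in coding sequence, 11 in 3′ untranslated regions and 7 in 5′ untranslated regions. The matches of the abundant members HSPA8, HSP90AA1 and HSPD1, and those of CCT7, DNAJB1 and the paralogues HSPH1 and HSPA4L, are printed as DNA, GRCh38, on the strand of the transcript, with the loop in capitals.
HSPA8 5′ untranslated region, bases 132 to 146 of ENST00000534624: aggggCGGGCccctt
HSPA8 coding sequence, bases 2009 to 2023 of ENST00000534624: atcaaCTGGCttgat
HSP90AA1 5′ untranslated region, bases 67 to 81 of ENST00000216281: aggttCGGGAggctt
HSPD1 5′ untranslated region, bases 69 to 83 of ENST00000388968: gcgcgCAGGGtgtgc
CCT7 5′ untranslated region, bases 77 to 91 of ENST00000258091: ggttgCTGGGcggcc
CCT7 coding sequence, bases 1363 to 1377 of ENST00000258091: ggtggCGGGGccatt
DNAJB1 coding sequence, bases 852 to 866 of ENST00000254322: agcctCCGGGaggct
HSPH1 coding sequence, bases 1097 to 1111 of ENST00000630972: tgtatCAGGAatgtg
HSPA4L coding sequence, bases 822 to 836 of ENST00000505726: tatatCAGGAatgtg

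Genes with and without such a match had similar differences between the libraries. The median log2 difference was 0.02 for the 20 chaperones with a match and 0.06 for the 41 without, against 0.01 and 0.02 for all protein-coding genes compared. HSPH1 and HSPA4L, whose matches share their loop, differed in opposite directions (0.26 and -0.16). HSPA8, with 2 matches, was among the lower members, and so were DNAJA1 and CCT6A, which had none. What part a match has in these differences was not tested. Transcripts with a match were longer, with a median of 2701 nt against 2041 nt for those without.

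Copies of the chaperone genes can draw fragments from them. The 123 pseudogenes named after members summed to 21.2 TPM without and 21.1 TPM with Dox, small beside the members' own TPM. Uneven ones were HSPE1P26, listed at 0 and then at 2.40 TPM, and CCT6P1, at 4.33 and 2.83 TPM.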

How the data were processed

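The authors deposited TPM values for 184844 Ensembl transcripts in 1 table with a column for each library. The submitters' processing notes name the tools Trimmomatic and Salmon and the build GRCh38.p13. Which versions, options and annotation were used is not given in the sources used here. Salmon shares fragments among similar transcripts, so single transcripts and near-identical copies are uncertain. Transcripts were named through GENCODE release 29: 161838 on the primary assembly, 7506 on other sequences of the build, and 15500 unmatched, the last holding 5.64% (without Dox) and 5.54% (with Dox) of all TPM. TPM was summed per gene, a pseudocount of 1 was added, and genes reaching a mean TPM of 1 were compared (11702 genes, 11225 protein-coding). Depth was estimated from the steps of values worth under 5.5 fragments, of which 79.7% and 82.6% lay within 0.1 of a whole number, where 20% would by chance with the step fixed beforehand. The step was fitted to these values, so these shares do not check it independently. A fragment on a transcript of 2000 nt is worth 0.0400 and 0.0317 TPM. The fitted step and the TPM differences were tested on simulated whole-fragment counts, without sharing of fragments among transcripts. The fragment ratios and their intervals were not tested in this way.

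Members and gene lists were chosen with earlier results of these data known. Named genes were SAMD4B, members at least 1.5-fold apart, the 12 most abundant members, all HSP90, HSPB, HSPH, chaperonin and expressed HSPA members, members next to the mark of 1 TPM, up to 4 of each DNAJ class and up to 3 of each partner list by size of difference. Others named, such as DNAJB2, DNAJC9 or SERPINH1, were chosen after their values were seen. Features of proteins were not analysed here. Python 3.11.15, pandas 2.3.3, numpy 2.4.6, scipy 1.17.1 and matplotlib 3.10.9 were used.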

Additional observations from a re-analysis of the deposited data

How the results depend on the processing

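The 3 members at least 1.5-fold apart depended on low values. The count was 0 with a pseudocount of 5 TPM and 0 at a mean TPM of at least 5 (54 members), 1 without transcripts listed at 0 in 1 library (64 members), and 1 in estimated fragments (54 members), in the last 2 cases HSPB8. It was 4 with a pseudocount of 0.1 TPM and 4 when centred on the median of all genes, each time with HSPA1A added as lower, and 2 with coding transcripts only, where DNAJB2 was lower. Using transcripts of the primary assembly alone, an alternative chosen after seeing the data, gave 2, since DNAJC28, HSPA1A and HSPA1B have no TPM there. The median over members was 0.04 and became -0.022 in estimated fragments, which cover 54 of them (0.04 on the TPM scale for the same 54), and that of 9370 protein-coding genes was then -0.02. Direction was kept by 44 of 54 members in estimated fragments, by 57 of 61 with coding transcripts only and by at least 62 under each other alternative that compared over 60. No paired analysis was possible because each group holds 1 library. With 1 library per group, no alternative speaks to variation between cultures.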
